A study of Mus musculus with 35 samples.

Results

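Slc26a4, Fxyd4, Muc5b, Muc5ac, Agr2, Spdef and Pigr were followed over 35 arrays with 2 colours of mouse lung. These 7 genes serve ion transport, mucous secretion or the transport of immunoglobulin A in epithelia. Every array probe whose RefSeq accession matched one of these symbols was taken, which gave 8 probes of the 27235 with a gene symbol, and 7 of the 20660 genes. How each gene was chosen is not stated. Slc26a4 and Fxyd4 were taken as selected on the size of their difference from control in these arrays. Their changes are therefore given as descriptions without a p-value. The other 5 genes were taken as added for their roles in mucous airway cells, with earlier results of the same arrays known. The p-values of these 5 rest on that assumption. All 7 genes passed the filter on dim probes, and 15621 genes did so in all. Of these genes, 6 had 1 probe each, and Pigr had 2.

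The series asked how strongly 3 nanomaterials, code-named NRCWE-043, NRCWE-044 and NRCWE-045, perturb pathways in the lung. Female C57BL/6 mice, 5 to 7 weeks old when housed, received 18 or 54 µg of 1 material by a single instillation into the trachea, and lungs were taken 24 h later. Each of the 6 treated groups had 5 arrays, and 5 arrays came from controls that received 0 µg, in a vehicle the labels do not state. RNA came from random sections of the lung, and the labels do not say that the arrays of a group were separate mice, so the p-values below measure the spread between these samples, part of which may be technical. Lung RNA was labelled with Cy5 and a universal mouse reference RNA, pooled from 11 mouse cell lines, with Cy3 on every array. Values are log2 ratios of lung to reference, so they compare arrays for 1 gene and not 1 gene with another. In whole-lung RNA, fewer cells of a type and less RNA per cell cannot be told apart.

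Mucous (goblet) cells and submucosal glands of the airway secrete gel-forming mucins, which need chloride and bicarbonate in the surface liquid to unfold. Interleukin-13 and interleukin-4, acting through the transcription factor STAT6, and interleukin-17 are known to raise several of these genes in airway epithelium. Slc26a4 encodes pendrin, an exchanger of chloride for bicarbonate, iodide and thiocyanate. Fxyd4 encodes a small membrane protein that associates with the Na,K-ATPase and changes its kinetics. Muc5b and Muc5ac encode the secreted gel-forming mucins, Agr2 a protein disulfide isomerase of the endoplasmic reticulum that mucins need for assembly, Spdef an ETS factor that drives goblet cell differentiation, and Pigr the receptor that carries polymeric immunoglobulin A across the epithelium.

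In the RefSeq annotation of GRCm38.p6 the genes lie at chr12:31519814-31560055 (Slc26a4), chr6:117933558-117937714 (Fxyd4), chr7:141839059-141873089 (Muc5b), chr7:141788958-141819227 (Muc5ac), chr12:35992925-36004081 (Agr2), chr17:27714446-27731003 (Spdef) and chr1:130826684-130852249 (Pigr). The mucins are neighbours. The promoters of 3 members are shown: those of Slc26a4 and Fxyd4, whose values moved together, and that of Pigr, the member whose probes disagreed. They are RefSeq sequences of GRCm38.p6 from 250 bases before to 50 bases after the start, read on the gene's strand, with motif matches in capitals. The Slc26a4 window (chr12:31559935-31560234, minus strand) has TATAAA starting 31 bases before the start, and the Pigr window (chr1:130826434-130826733, plus strand) has a STAT site, TTCNNNGAA, in its transcribed first bases. The Fxyd4 window (chr6:117937286-117937585, minus strand) held none of the motifs searched.
Slc26a4: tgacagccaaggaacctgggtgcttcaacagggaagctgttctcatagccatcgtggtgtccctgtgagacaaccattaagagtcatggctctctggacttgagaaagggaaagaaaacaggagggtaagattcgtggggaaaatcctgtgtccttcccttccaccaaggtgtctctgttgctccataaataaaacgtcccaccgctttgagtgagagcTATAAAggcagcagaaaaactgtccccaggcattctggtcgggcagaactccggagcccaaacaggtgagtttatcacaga
Fxyd4: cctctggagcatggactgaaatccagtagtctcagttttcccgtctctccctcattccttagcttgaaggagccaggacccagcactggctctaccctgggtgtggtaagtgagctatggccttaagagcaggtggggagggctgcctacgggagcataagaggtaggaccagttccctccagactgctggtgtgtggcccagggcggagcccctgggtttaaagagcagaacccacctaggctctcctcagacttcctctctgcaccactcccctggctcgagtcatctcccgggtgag
Pigr: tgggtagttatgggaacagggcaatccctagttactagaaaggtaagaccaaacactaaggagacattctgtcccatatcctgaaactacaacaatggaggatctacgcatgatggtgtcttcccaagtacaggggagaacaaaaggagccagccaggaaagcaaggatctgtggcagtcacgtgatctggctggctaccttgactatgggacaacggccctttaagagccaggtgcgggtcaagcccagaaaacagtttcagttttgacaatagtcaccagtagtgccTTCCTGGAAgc

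Both strands of 5 member promoters were searched for 7 motifs, and RefSeq entries for Muc5b and Muc5ac were not used here. TATAAA occurred in 1 of the 5 and in 13.6% of 32851 promoters of the same length. The STAT site with a 3-base spacer, a palindrome that reads alike on both strands, occurred in 1 of the 5 and in 8.30% of all. The wider STAT6 site with a 4-base spacer occurred in 0 of the 5 and in 6.95% of all. The other motifs searched were a forkhead site (TGTTTAC, in 3.65% of all), a CREB site (TGACGTCA, in 1.79%), a C/EBP site (TTGCNNAA, in 10.8%) and an ETS core that SPDEF can bind (AGGATG, in 17.2%), each in 0 of the 5. These matches describe letters only and do not show binding.

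Slc26a4 was high in nearly every array of the 54 µg groups and split in the controls. The control arrays had log2 ratios of 0.97, 1.23, 1.48, 4.59 and 4.89, the last values being those of replicates 2 and 29. NRCWE-044 gave 1.54, 2.00, 2.17, 4.04 and 5.01 at 18 µg and 5.69, 6.21, 6.72, 6.99 and 7.26 at 54 µg. The 18 µg values ran through the range of the controls, whereas every array of the 54 µg group lay above every control and every 18 µg array. NRCWE-043 gave 3.70, 4.26, 4.29, 4.70 and 5.88 at 18 µg and 4.37, 5.47, 5.71, 5.95 and 6.17 at 54 µg. NRCWE-045 gave 2.20, 3.34, 4.31, 4.53 and 6.63 at 18 µg and 4.11, 5.50, 5.54, 5.98 and 6.72 at 54 µg. In both materials the lowest array at 54 µg lay below control replicates 2 and 29, and the other 3 control arrays lay below every array of these 4 groups.

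**Figure D1:**
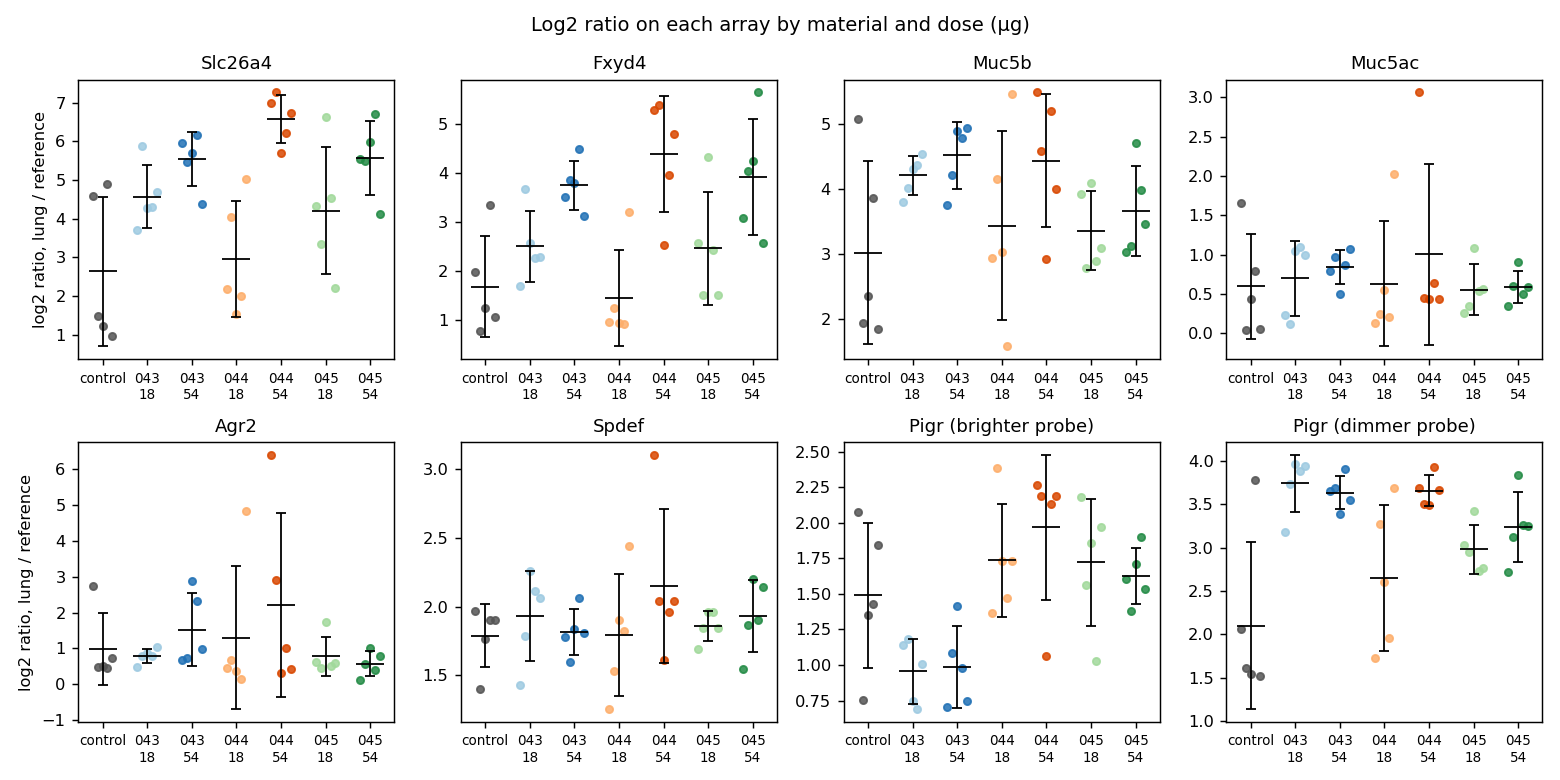
Log2 ratio of lung to reference RNA (vertical axis, separate scale per panel) on each of 35 arrays by material and dose in µg for the 8 probes; points are arrays, horizontal lines group means and bars SD, n = 5. The Slc26a4 arrays of NRCWE-044 at 54 µg lie between 5.69 and 7.26, above all controls, and 2 control arrays lie at 4.59 and 4.89.

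The Slc26a4 group mean was 2.63 ± 1.93 (SD, n = 5) in controls and 6.58 ± 0.63 (SD, n = 5) for NRCWE-044 at 54 µg, a difference of 3.94 (SE 0.74) or 15.4-fold. The differences from control were 2.90 (7.46-fold) for NRCWE-043 and 2.94 (7.65-fold) for NRCWE-045 at 54 µg, each with the same SE. At 18 µg they were 1.93 for NRCWE-043, 0.32 for NRCWE-044 and 1.57 for NRCWE-045. In order of their group means the groups ran from the controls through NRCWE-044, NRCWE-045 and NRCWE-043 at 18 µg to NRCWE-043, NRCWE-045 and NRCWE-044 at 54 µg. The step between NRCWE-043 and NRCWE-045 at 54 µg, 0.04 (95% interval -1.47 to 1.54), was far smaller than the spread between arrays. The ranges of each pair of neighbours in this order overlapped.

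Fxyd4 followed Slc26a4 closely. Its log2 ratios were 0.77, 1.05, 1.24, 1.97 and 3.34 in controls, with replicate 29 the highest. NRCWE-044 gave 0.91, 0.93, 0.94, 1.23 and 3.19 at 18 µg and 2.53, 3.96, 4.81, 5.28 and 5.40 at 54 µg. All 5 arrays at 18 µg lay within the control range, replicate 23 at its upper end, and 4 of the 5 arrays at 54 µg lay above all controls. NRCWE-043 gave 1.70, 2.26, 2.29, 2.57 and 3.67 at 18 µg and 3.12, 3.52, 3.80, 3.85 and 4.49 at 54 µg. NRCWE-045 gave 1.49, 1.50, 2.42, 2.58 and 4.33 at 18 µg and 2.57, 3.08, 4.04, 4.25 and 5.65 at 54 µg. Control replicate 29, at 3.34, was the only control array within the range of NRCWE-043 and NRCWE-045 at 54 µg. Against control the mean was higher by 2.72 (SE 0.59, 6.59-fold) for NRCWE-044, 2.24 (4.74-fold) for NRCWE-045 and 2.08 (4.22-fold) for NRCWE-043 at 54 µg. At 18 µg the differences were 0.82 for NRCWE-043, 0.79 for NRCWE-045 and -0.23 for NRCWE-044.

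Of the 7 members, 2 were called higher than control at an adjusted p under 0.05 for NRCWE-043 at 54 µg, where 5.33% of all 25534 features were called higher, and 2 for NRCWE-044 at 54 µg, where 3.92% were. In both comparisons these were Slc26a4 and Fxyd4, which are taken as chosen on their change, so nothing is read from the counts. For NRCWE-045 at 54 µg 0 of 7 were called higher, against 0.29% of all features and 2395 features at an unadjusted p under 0.05. At 18 µg 0 of 7 were called higher for NRCWE-043 (1.35% of features), NRCWE-044 (0%) and NRCWE-045 (0%). In limma these 18 µg comparisons held 4888, 2764 and 710 features at an unadjusted p under 0.05. No member was called lower in any of the 6 comparisons, where 2.84% and 4.88% of features were called lower for NRCWE-043 at 18 and 54 µg, 0% and 2.02% for NRCWE-044, and 0% and 0.0352% for NRCWE-045. Slc26a4 at NRCWE-044 54 µg was the only member whose arrays all lay above all controls, as 3.74% of all features did. The count for NRCWE-043 at 54 µg fell to 1 without its replicate 19 or control replicate 30, because Fxyd4 was lost, and the count for NRCWE-045 at 54 µg rose to 2 without control replicate 29 or its own replicate 35.

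The arrays came from 7 slides. Within slides that held both groups, the NRCWE-044 arrays at 54 µg exceeded control on 3 of 3 slides, by 3.96 to 6.03 for Slc26a4 and 2.91 to 4.16 for Fxyd4. For NRCWE-043 at 54 µg Slc26a4 was higher on 2 of 2 slides, by 2.91 to 4.71, and for NRCWE-045 on 4 of 4, by 1.09 to 5.74. At 18 µg NRCWE-045 exceeded control for Slc26a4 on 2 of 3 slides, with differences of -2.69 to 5.40. Both genes are taken as selected on their difference from control in these same arrays, so nothing is read from the agreement between slides.

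The log2 ratios of Slc26a4 and Fxyd4 correlated over the 35 arrays, with Pearson's r of 0.921 and Spearman's rho of 0.936. Without replicates 30 and 15, the arrays farthest from the Slc26a4 median, r was 0.929, and after removing group means it was 0.842, so the arrays that were high for one gene within a group were mostly high for the other. The arrays share the reference RNA, and the correlation is a description. The mean log2 ratio of 10 heart muscle markers moved with both genes within groups, at r of 0.734 for Slc26a4 and 0.745 for Fxyd4. Over all arrays, groups included, these were 0.405 and 0.415 (Spearman's rho 0.349 and 0.345). Other members moved with this mean too, at r within groups of 0.691 for Muc5b, 0.616 for Agr2, 0.536 for Muc5ac and 0.48 for Spdef. Over all arrays Agr2 (0.586), Muc5b (0.525) and Muc5ac (0.513) had higher values than Slc26a4 and Fxyd4. With neutrophil markers Slc26a4 and Fxyd4 correlated at 0.556 and 0.62 over all arrays, and at 0.262 and 0.326 within groups. All 10 of the 10 heart muscle markers were measured, and the cardiac myosin Myh6 was well above background on 33 of 35 arrays. The marker mean ran from 0.15 to 2.69 in controls and from 0.12 to 2.13 for NRCWE-044 at 54 µg, and it was 2.52 and 2.69 in control replicates 2 and 29, the same arrays that were high for Slc26a4. The 2 highest Slc26a4 arrays of NRCWE-044 at 54 µg, replicates 18 and 4, had marker means of 2.13 and 1.96, while its replicates 31 and 24, at 6.21 and 5.69, had 0.12 and 0.25. The marker mean was also used as a covariate, an alternative chosen after seeing the data. The difference from control for NRCWE-044 at 54 µg was then 4.04 for Slc26a4 and 2.80 for Fxyd4, beside 3.94 and 2.72 without it. Myh7, 1 of the 10 markers, was itself called lower in that comparison (-1.26, limma adjusted p = 0.015, and 0.62 with median centring). The part of heart tissue in these values was not tested. Of the thyroid markers, listed because thyroid tissue also makes pendrin, thyroglobulin (Tg) was well above background on 34 of 35 arrays at log2 ratios of -0.61 to 0.15, the iodide transporter Slc5a5 on 9, and Tshr, Pax8 and Iyd on 0.

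**Figure D2:**
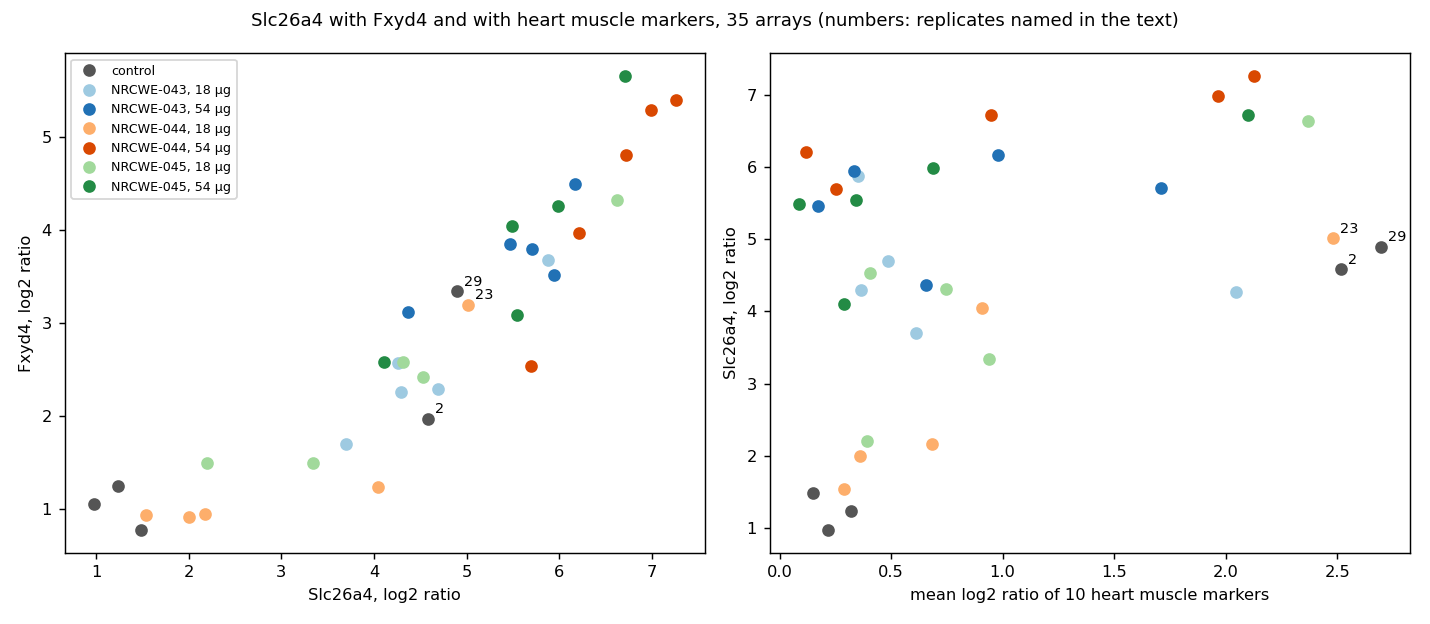
Left, Fxyd4 against Slc26a4 log2 ratio on 35 arrays; right, Slc26a4 log2 ratio against the mean log2 ratio of 10 heart muscle markers, with groups by colour and the replicates named in the text numbered. Slc26a4 and Fxyd4 rise together (r 0.921), and control replicates 2 and 29 have both high Slc26a4 and high heart muscle markers (2.52 and 2.69).

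Muc5b was higher in every treated group's mean than in controls, but it was called in none, and every treated group overlapped the control range. Its log2 ratios were 1.85, 1.94, 2.36, 3.86 and 5.09 in controls, where replicates 29 and 2 were again the highest. NRCWE-043 gave 3.80, 4.03, 4.32, 4.37 and 4.54 at 18 µg and 3.75, 4.22, 4.78, 4.90 and 4.95 at 54 µg. NRCWE-044 gave 1.58, 2.94, 3.04, 4.16 and 5.47 at 18 µg and 2.92, 4.01, 4.59, 5.20 and 5.49 at 54 µg. NRCWE-043 had the narrowest ranges, above 3 of the 5 control arrays, and the NRCWE-044 arrays at 18 µg covered the whole control range. NRCWE-045 lay between 2.79 and 4.10 at 18 µg and between 3.04 and 4.71 at 54 µg. The difference from control was 1.50 (SE 0.56, limma adjusted p = 0.086) for NRCWE-043 at 54 µg and 1.42 (adjusted p = 0.14) for NRCWE-044 at 54 µg. It was 0.65 for NRCWE-045 at 54 µg, and 1.19, 0.42 and 0.34 for NRCWE-043, NRCWE-044 and NRCWE-045 at 18 µg, with adjusted p of 0.24 to 1. Without control replicate 2, the high control, Muc5b was called for NRCWE-043 (2.02, limma adjusted p = 0.018) and NRCWE-044 (1.94, adjusted p = 0.029) at 54 µg. With the heart muscle markers as a covariate it was called too, at adjusted p of 0.035 for NRCWE-043 at 18 µg and 0.0040 and 0.022 for NRCWE-043 and NRCWE-044 at 54 µg. Among the marker lists compared, Muc5b moved most closely with that of submucosal glands, 5 of 6 of which were tested. The goblet cell list, mostly members, was not compared. For Muc5b r was 0.833 over 35 arrays (Spearman's rho 0.873) and 0.841 within groups. Without replicates 23 and 4, the arrays farthest from the median marker mean, it was 0.807. The gland list was also the closest for Muc5ac (0.786), Agr2 (0.70) and Spdef (0.685). Its genes Dmbt1 and Sox10 were well above background on only 12 and 13 arrays. Dmbt1 and Bpifb1 were also on the list of mucins and goblet cell products, so the gland list does not tell glands from goblet cells. The gland marker mean ran from 2.14 to 3.10 in controls and from 2.79 to 3.71 for NRCWE-044 at 54 µg, and its part in the Muc5b values was not tested.

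Muc5ac was low on most arrays and high on a few. It was well above background on 33 of 35 arrays, with log2 ratios of 0.05, 0.05, 0.44, 0.79 and 1.66 in controls and 0.44, 0.44, 0.45, 0.64 and 3.06 for NRCWE-044 at 54 µg. In that treated group 4 arrays lay among the controls and replicate 4 stood alone. Over the 6 treated groups the difference from control ran from -0.04 for NRCWE-045 at 18 µg to 0.41 (SE 0.38, limma adjusted p = 0.63) for NRCWE-044 at 54 µg, which was -0.11 without replicate 4.

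Agr2 showed the same pattern with a wider range. Controls gave 0.45, 0.48, 0.51, 0.72 and 2.76, the last being replicate 2. NRCWE-044 gave 0.14, 0.38, 0.45, 0.68 and 4.85 at 18 µg, the last being replicate 23, and 0.31, 0.43, 1.01, 2.90 and 6.40 at 54 µg, where replicates 18 and 4 were the highest. NRCWE-043 at 54 µg gave 0.69, 0.73, 0.99, 2.32 and 2.88. The other groups lay between 0.11 and 1.75. The mean was 0.98 ± 1.00 (SD, n = 5) in controls and 2.21 ± 2.56 (SD, n = 5) for NRCWE-044 at 54 µg, a difference of 1.23 (SE 0.80, limma adjusted p = 0.43) that was smaller than the spread within the treated group. Without replicate 4 it was 0.18 (adjusted p = 0.94). In the remaining groups it ran from -0.41 for NRCWE-045 at 54 µg to 0.54 for NRCWE-043 at 54 µg. NRCWE-045 lay below NRCWE-044 at 54 µg by 1.64 in a comparison that was not called (adjusted p = 0.82), and the difference was -0.59 without replicate 4. Agr2 and Muc5ac correlated at r of 0.814 over 35 arrays (Spearman's rho 0.631), and at 0.450 without replicates 4 and 23, so much of that relation rests on those arrays.

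Spdef varied least among the members apart from these arrays. It lay between 1.26 and 3.10 on all 35 arrays, at 1.40, 1.76, 1.90, 1.91 and 1.97 in controls and at 1.61, 1.96, 2.04, 2.04 and 3.10 for NRCWE-044 at 54 µg. The highest value again came from replicate 4. Its difference from control was 0.36 (SE 0.20, limma adjusted p = 0.33) for NRCWE-044 at 54 µg (0.12 without replicate 4), and 0.00 to 0.14 in the other 5 groups. Its log2 ratio correlated with that of Muc5ac at r of 0.802 over the arrays. Replicate 4 was the highest array for both genes, and r without it was not computed.

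**Figure D3:**
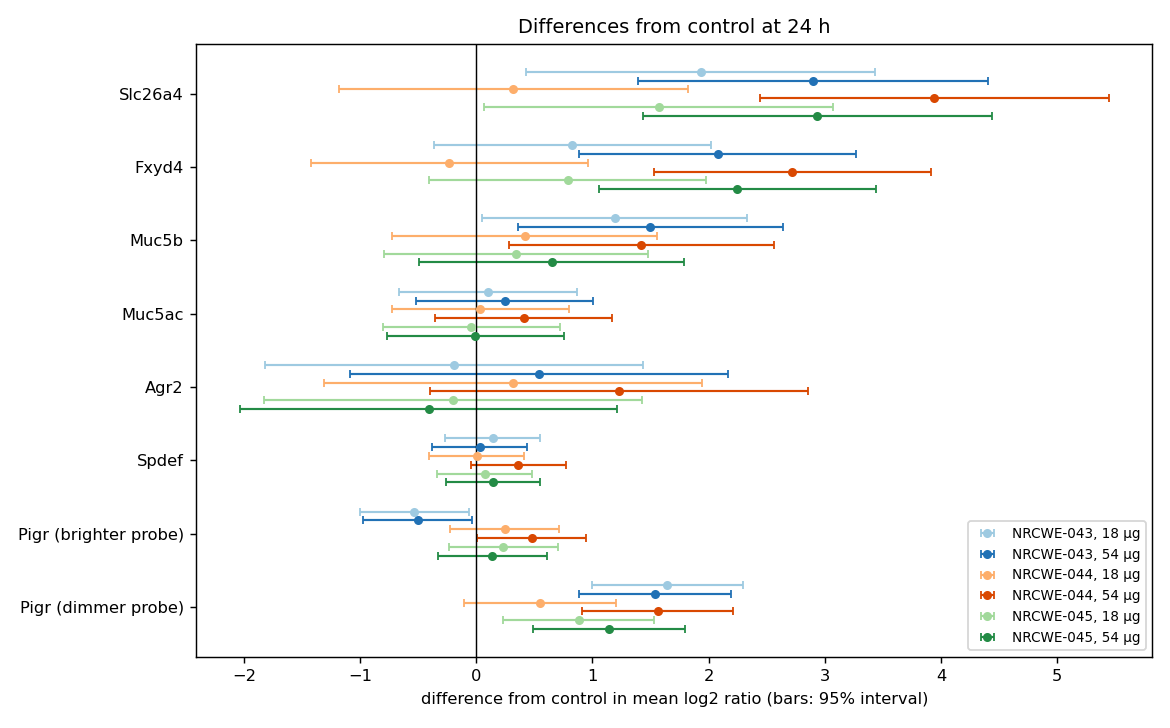
Difference from control in mean log2 ratio (horizontal axis) for the 8 probes and 6 treated groups, 5 arrays each; points are differences and bars 95% intervals from the fit. Slc26a4 and Fxyd4 at 54 µg lie at 2.08 to 3.94, Muc5ac between -0.04 and 0.41, and the Pigr probes on opposite sides of 0 for NRCWE-043.

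Pigr gave different answers with its 2 probes, so its direction against control is uncertain for NRCWE-043, where the probes differed in sign. For NRCWE-044 and NRCWE-045 both probes had means above control at both doses, with no call on the brighter probe. Without control replicates 7 and 29 the brighter probe lay below control for NRCWE-044 at 18 µg and for NRCWE-045 at both doses. The brighter probe, with median intensities of 18320 in Cy5 and 8548 in Cy3, stood for the gene in the fit, and the dimmer one had 801 and 55.5. On the brighter probe controls gave 0.75, 1.35, 1.43, 1.84 and 2.08, and NRCWE-043 gave 0.69, 0.75, 1.00, 1.14 and 1.19 at 18 µg and 0.71, 0.75, 0.98, 1.09 and 1.41 at 54 µg. On the dimmer probe controls gave 1.51, 1.54, 1.61, 2.06 and 3.78, and NRCWE-043 gave 3.18, 3.74, 3.89, 3.94 and 3.96 at 18 µg and 3.39, 3.55, 3.65, 3.69 and 3.91 at 54 µg. With NRCWE-043 the brighter probe was thus mostly below controls and the dimmer one above all controls except replicate 29. NRCWE-044 at 54 µg gave 1.06, 2.13, 2.19, 2.19 and 2.27 on the brighter probe and 3.50, 3.51, 3.67, 3.69 and 3.94 on the dimmer one. Over the 35 arrays the probes correlated at r of -0.0844, and at 0.213 within groups.

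Against control, the brighter probe differed by -0.54 (SE 0.23, limma adjusted p = 0.19) and -0.50 (adjusted p = 0.18) for NRCWE-043 at 18 and 54 µg, and by 0.48 (adjusted p = 0.25) for NRCWE-044 at 54 µg. It was called lower for NRCWE-043 at both doses without control replicate 7, at adjusted p of 0.049 and 0.044. The dimmer probe rose by 1.64 (SE 0.32, limma adjusted p = 0.0020) and 1.54 (adjusted p = 0.0017) for NRCWE-043 at 18 and 54 µg and by 1.56 (adjusted p = 0.0025) for NRCWE-044 at 54 µg, with 5 of 5 arrays above the control mean each time. With median centring the values were 1.58 (adjusted p = 0.085) for NRCWE-043 at 18 µg and 1.46 (adjusted p = 0.19) for NRCWE-044 at 54 µg, so these calls were lost, and with only the compared groups in the fit NRCWE-043 at 18 µg missed the threshold too (adjusted p = 0.10). The dimmer probe differed by 1.14 (adjusted p = 0.12) for NRCWE-045 at 54 µg, and was called there without control replicate 29 (1.56, adjusted p = 0.0024). At 18 µg it differed by 0.55 for NRCWE-044 and 0.88 for NRCWE-045, neither called. With the mean over both probes the NRCWE-043 differences were 0.55 and 0.52, the opposite sign to the brighter probe. That of NRCWE-044 at 54 µg was 1.02 and was called (limma adjusted p = 0.0037).

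**Figure D4:**
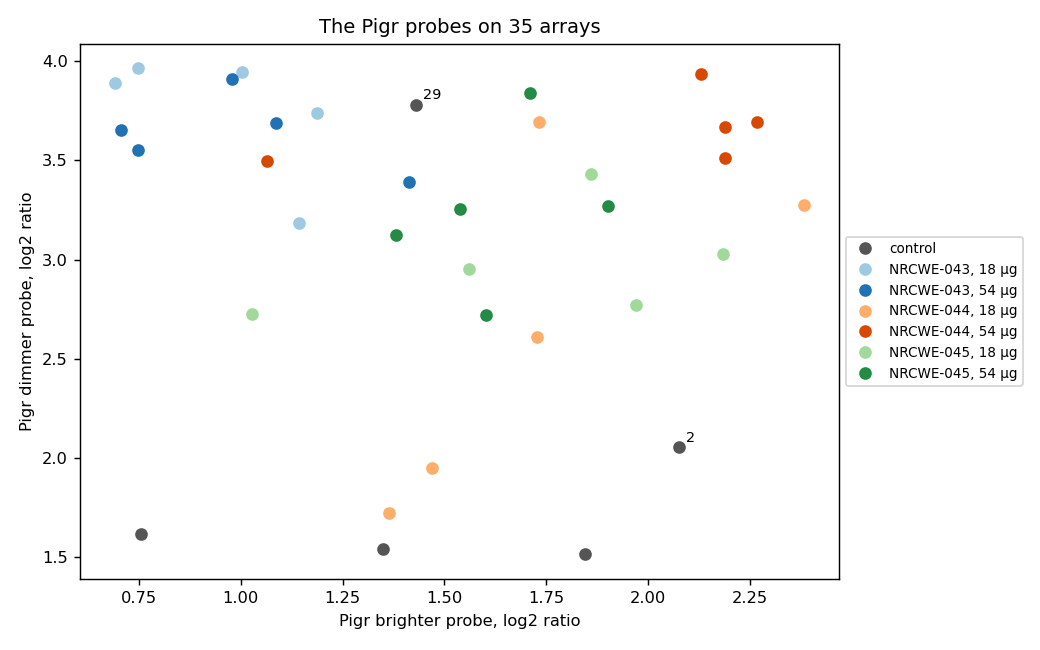
Log2 ratio of the dimmer Pigr probe (vertical axis) against the brighter one (horizontal axis) on 35 arrays, coloured by group, with control replicates 2 and 29 numbered. NRCWE-043 arrays are low on the brighter and high on the dimmer probe, and the points show no common trend (r -0.0844).

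Doses of each material were compared to ask whether the members differed between 18 and 54 µg. For NRCWE-044 2 of 7 members were called higher at 54 µg, where 6.52% of all features were called in either direction. These were Slc26a4, higher by 3.62 (SE 0.74, 12.3-fold) with every array above every 18 µg array, as 3.75% of features were, and Fxyd4, higher by 2.96 (SE 0.59, 7.75-fold). Both are taken as selected on differences that use the same 54 µg arrays, so nothing is read from this count or from the lack of overlap. For NRCWE-043 0 of 7 were called (1.16% of features), with steps of 0.97 for Slc26a4 and 1.25 for Fxyd4. For NRCWE-045 0 of 7 were called (0% of features, and 976 at an unadjusted p under 0.05), with steps of 1.37 and 1.46. Muc5b steps were 0.31, 1.00 (adjusted p = 0.32) and 0.31 for NRCWE-043, NRCWE-044 and NRCWE-045. The dimmer Pigr probe stepped by 1.01 for NRCWE-044 (limma adjusted p = 0.051). Without replicate 11 or replicate 23 of the 18 µg group this passed the threshold, at adjusted p of 0.035 and 0.0087, and it did so with slide as a fixed or random block (0.041 and 0.028). No member's dose step was called as different between materials in the 3 tests of that difference, in which limma called 0 features and 836 to 1142 had an unadjusted p under 0.05.

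Materials were compared at matched dose in 6 pairs. Pigr, on the brighter probe, was the 1 member of 7 called higher for NRCWE-044 than for NRCWE-043 at 18 µg, by 0.78 (SE 0.23, limma adjusted p = 0.025), where 11% of all features were called. It was also the 1 member called for NRCWE-045 over NRCWE-043 at 18 µg, by 0.77 (adjusted p = 0.032, 8.52% of features), and for NRCWE-044 over NRCWE-043 at 54 µg, by 0.98 (adjusted p = 0.0044, 7.6% of features). In all 3, each of the 5 arrays lay above the NRCWE-043 mean. The dimmer probe gave differences of -1.09 (limma adjusted p = 0.023), -0.76 (0.14) and 0.02 (0.99) in the same pairs, so the direction between materials also rests on the probe. The calls on the brighter probe ended with median centring, with the Cy5 channel alone and with the mean over probes, and those at 18 µg also with the values the authors deposited. Single arrays decided the 18 µg calls as well. Without NRCWE-043 replicate 20 or 26 the brighter-probe differences were 0.73 and 0.71 for NRCWE-044 and 0.71 and 0.70 for NRCWE-045, and without NRCWE-044 replicate 11 the former was 0.62, with limma adjusted p of 0.057 to 0.090. Without NRCWE-045 replicate 1, 13 or 27 the latter was 0.65, 0.73 and 0.70, with adjusted p of 0.073 to 0.097. The dimmer-probe call at 18 µg was lost without NRCWE-044 replicate 6 or 21 (-0.86 and -0.92) or NRCWE-043 replicate 20 or 33 (-1.04 and -1.05), with adjusted p of 0.051 to 0.079, and with median centring (-1.02, adjusted p = 0.24).

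In the other 3 pairs 0 of 7 members were called. For NRCWE-045 against NRCWE-043 at 54 µg (5.39% of features called) Slc26a4 differed by 0.04 (95% interval -1.47 to 1.54) and Fxyd4 by 0.17 (-1.03 to 1.36). For NRCWE-045 against NRCWE-044 Slc26a4 differed by 1.25 at 18 µg (0.45% of features called) and by -1.01 at 54 µg (0% called, 1540 at an unadjusted p under 0.05). Fxyd4 differed by 1.02 and -0.48 in the same pairs. Between NRCWE-044 and NRCWE-043 Slc26a4 differed by -1.61 at 18 µg and 1.04 at 54 µg, and Fxyd4 by -1.06 and 0.64. The intervals of these differences are wide, and a value that misses the threshold does not show that the materials act alike.

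Few relatives of the members were called. Of 6 other SLC26 anion transporters tested, Slc26a1, a sulfate transporter, fell by 1.94 (SE 0.37, limma adjusted p = 0.0015) for NRCWE-043 at 18 µg and by 2.06 (adjusted p = 0.00033) at 54 µg, and Slc26a2 rose by 0.50 (adjusted p = 0.018) at 18 µg. None of the 6 passed for NRCWE-044 or NRCWE-045. In the family of Fxyd4, Fxyd5 rose by 0.30 (limma adjusted p = 0.037) for NRCWE-043 at 54 µg. With median centring the calls of Fxyd5 and Slc26a2 were lost and that of Slc26a1 was kept. Of 13 genes of airway ion transport and oxidant defence, 1, the water channel Aqp5, rose for NRCWE-043, by 0.72 and 0.61 at 18 and 54 µg, and its other probe differed by -0.03 and 0.10. Its calls too were lost with median centring (adjusted p of 0.93 and 0.18).

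Of 15 other mucins and goblet cell products, 1 rose for NRCWE-043 at 18 µg, 3 at 54 µg and 1 for NRCWE-044 at 54 µg, with 0 in the other groups and 0 lower. Of all features 1.35%, 5.33% and 3.92% were called higher in these comparisons, and these shares stand beside the other list counts too. Muc20 rose by 0.93 (limma adjusted p = 0.017) at 18 µg. At 54 µg of NRCWE-043 the membrane mucin Muc4 rose by 0.93 (adjusted p = 0.029), Retnlb, which goblet cells of the gut secrete, by 0.43 (adjusted p = 0.030) and Dmbt1, a mucosal scavenger receptor protein, by 0.39 (adjusted p = 0.048). Muc4 rose by 1.27 (adjusted p = 0.0046) for NRCWE-044 at 54 µg. The other probes of Muc4 and Muc20 gave smaller values, 0.41 and 0.26 for Muc4 in the same order and 0.31 for Muc20, and with median centring 0 genes of the list were called in any of these groups. Of 13 transcription factors of airway secretory cells, Creb3l1 rose by 0.84 (adjusted p = 0.0043) and the receptor Notch2 fell by 0.39 (adjusted p = 0.025) for NRCWE-044 at 54 µg, and 0 passed elsewhere. Both calls were lost with median centring (adjusted p of 0.96 and 1), the other Notch2 probe differed by -0.04, and without control replicates 7 and 29 the count of higher genes was 0.

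Genes of the interleukin-4 and interleukin-13 axis rose at 54 µg of NRCWE-043 (4 of 18) and NRCWE-044 (5 of 18), with 0 lower. For NRCWE-044 these were the eosinophil attractants Ccl24, by 4.18 (SE 0.66, limma adjusted p = 0.00017), and Ccl11, by 1.96 (adjusted p = 0.0010), the arginase Arg1, by 2.48 (adjusted p = 4.4e-05), the alarmin Il33, by 1.52 (adjusted p = 0.00091), and Retnla, named after its value was seen, by 1.27 (adjusted p = 0.035). For NRCWE-043 they were Ccl24 at 3.41, Arg1 at 2.44, Il33 at 1.43 and Ccl11 at 1.39, with adjusted p of 3.8e-05 to 0.012. None of the 18 passed for NRCWE-045 at 54 µg or for any group at 18 µg. The median change was 0.50 for NRCWE-044 and 0.34 for NRCWE-043 at 54 µg, against 0.00 and 0.01 over all features. The receptor Il4ra and the factor Stat6 were not called. Without control replicates 7 and 29, an alternative added after seeing the data, 4 genes were called for each of NRCWE-043 and NRCWE-044, and with median centring 4 and 3. With the heart muscle markers as a covariate 4, 6 and 3 were called higher for NRCWE-043, NRCWE-044 and NRCWE-045, and 2 were called lower for NRCWE-043.

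**Figure D5:**
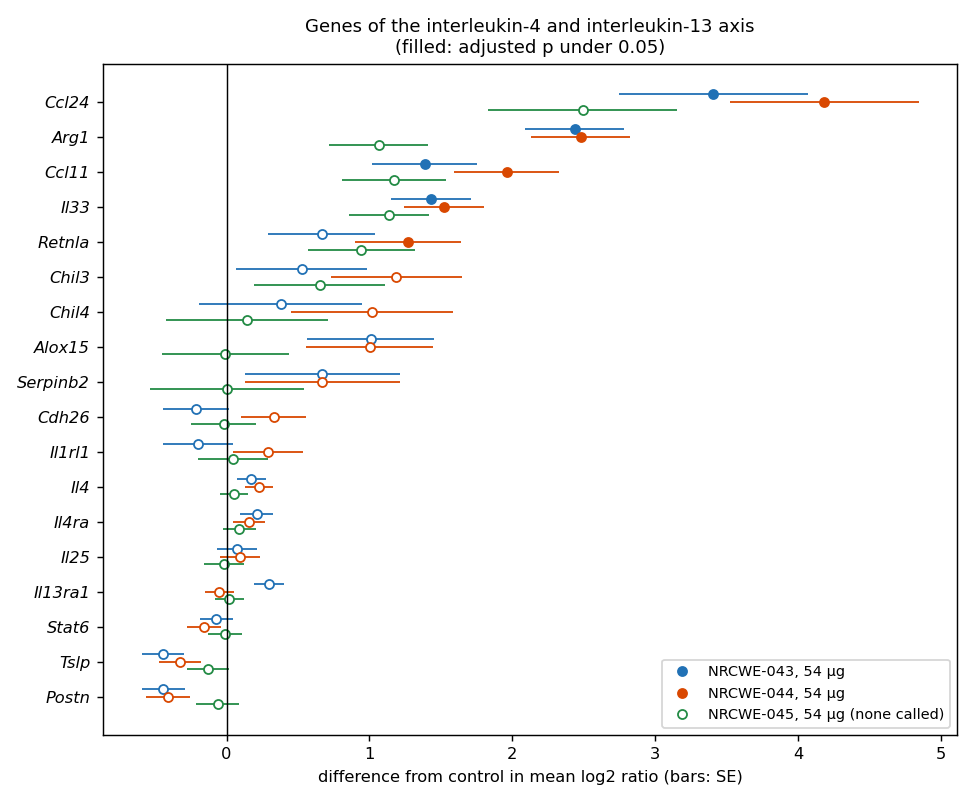
Difference from control in mean log2 ratio (horizontal axis) for 18 tested genes of the interleukin-4 and interleukin-13 axis at 54 µg of the 3 materials, with SE bars; filled points passed an adjusted p under 0.05. Ccl24, Arg1, Ccl11 and Il33 are filled for NRCWE-043 and NRCWE-044, Retnla for NRCWE-044, and 0 genes for NRCWE-045.

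Of 13 genes of the interleukin-17 and interleukin-22 axis, 2 rose for NRCWE-043 at 18 µg (Il17ra by 0.49 and Il22ra1 by 0.41), 2 at 54 µg, and 3 for NRCWE-044 at 54 µg, with 0 for the other groups. At 54 µg of NRCWE-044 these were the neutrophil attractants Cxcl5, by 3.11 (SE 0.57, limma adjusted p = 0.00091), and Cxcl1, by 1.38 (adjusted p = 0.033), and the siderophore-binding Lcn2, by 1.72 (adjusted p = 0.0022). Lcn2 rose by 1.41 (adjusted p = 0.0076) and the receptor Il17ra by 0.52 (adjusted p = 0.0090) for NRCWE-043 at 54 µg. With median centring the counts were 0 for NRCWE-043 at both doses and 1 for NRCWE-044. Of 10 genes of immunoglobulin A transport and plasma cells, Sdc1 rose by 0.56 for NRCWE-043 at 18 µg, the joining chain Jchain fell by 0.77 at 54 µg, and the B cell survival factor Tnfsf13b rose by 0.88 for NRCWE-044 and 0.70 for NRCWE-045 at 54 µg. Both Il17ra and the plasma cell gene Sdc1 were lost with median centring, as were Jchain and Tnfsf13b.

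Markers of the cells that could hold these transcripts were uneven. Of 8 goblet cell markers, 4 of which are members, Foxa3 was well above background on 0 of 35 arrays, Gcnt3 on 2 and Clca1 on 19, with a log2 ratio of up to 9.22. The goblet marker mean over 6 tested genes ran from 0.69 to 3.92 in controls and from 0.91 to 5.26 for NRCWE-044 at 54 µg. Ionocyte markers were uneven too: Atp6v1b1 was well above background on 10 arrays, Foxi1 on 13, Ascl3 on 19, Cftr on 25, Stap1 on 34 and Atp6v0d2 on 35, the last at log2 ratios of 2.09 to 3.62, and 0 of 6 were called at 54 µg. Airway and alveolar cells were represented in every sample, with the club cell gene Scgb1a1 at 6.88 to 8.66 and the alveolar gene Sftpc at 7.22 to 9.07. Club cell markers fell for NRCWE-043 at 54 µg in 4 of 7 (Aldh1a1 by 1.53, limma adjusted p = 4.8e-05), and 1 of 7 (Aldh1a1 by 1.08) for NRCWE-044, where 4.88% and 2.02% of all features were called lower. With median centring 0 of 7 were called in either group. Among eosinophil markers 3 of 5 rose for NRCWE-044 and 1 of 5 for NRCWE-043 at 54 µg, where 3.92% and 5.33% of all features were called higher, while the granule gene Epx was well above background on 0 arrays. With median centring 0 of the 5 were called in either group. The part of these cells in the members' changes was not tested. Over the series, 42.8 to 69.3% of probes per array were well above background in Cy5, and precision is set by having 5 arrays in a group.

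Genes were also ranked by the likeness of their log2 ratios to each member over the 35 arrays, among 15614 genes. Most like Slc26a4 were Ccl17 at r of 0.949, Il4i1 at 0.930, AA467197 at 0.908, Ccl7 at 0.880 and Batf3 at 0.879. Most like Fxyd4 were Dok2 at 0.925, Il33 at 0.916, Ccl11 and AA467197 at 0.910, and Derl3 at 0.906. The lists share AA467197. Muc5b was most like Bpifb1, a gene of both the gland list and the goblet product list, at 0.915, then Retnla and Tff2 at 0.749. Muc5ac and Spdef were both most like Fcgbp, at 0.878 and 0.812, and Agr2 was most like Reg3g at 0.931, Clca1 at 0.913 and Tff2 at 0.905. The brighter Pigr probe was most like Dcc at 0.962, Rhox8 at 0.952, Gab3 at 0.947, Ermn at 0.944 and Cabp5 at 0.927, probes with median Cy3 intensities of 1673 to 20240. These correlations describe 35 arrays with a shared reference and carry no p-value.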

How the data were processed

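Lung RNA from 35 arrays with 2 colours was measured in 7 groups of 5. Per the file headers, the spot intensities were read by the authors with Feature Extraction 11.0.1.1. Lung RNA was in Cy5 and the universal reference in Cy3 on each array, with no dye swap. The deposited series values are log2 ratios of Cy5 to Cy3, and how they were normalized is, in the sources used here, not given. They followed loess ratios made without background subtraction at r of 0.994 to 1.00 and were used as an alternative. Other deposited columns are marks per spot. The probe sequences were not used here.

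Median intensities were corrected with normexp (offset 50) and by loess within arrays. Files were read with data.table (1.17.8). Spots carrying a non-uniformity or population outlier mark were dropped. RefSeq accessions of GRCm38.p6 named 27235 of 55681 probes. Probes entered the test when at least 3 of 5 Cy5 values in any group were well above background, and the brightest probe was taken for a gene, which left 25534 features. A linear model over 35 arrays (limma 3.58.1, eBayes, R 4.3.3) gave changes, SE and p-values. Benjamini-Hochberg adjustment ran over all features separately for the 18 comparisons, and "called" means an adjusted p under 0.05. The dimmer Pigr probe was tested by putting it in place of the brighter one. Gene lists were described by counts and medians, with no test of the list. Within-slide differences used the 7 slides.

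The members, lists and marker genes were chosen with earlier results of these data known. The genes named are the 7 members, up to 4 called genes with the largest change of each pathway list and group, up to 3 called genes of each marker list, and the 5 genes most like each member. Retnla, Il4ra, Stat6 and marker genes without a call were named after their values were seen. Some genes of these lists are not reported here. The fit was tested on simulated data holding known changes. Figures were drawn with matplotlib 3.10.9 and pandas 2.3.3 under Python 3.11.15.

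Settings tried besides these were no background subtraction, the deposited values, median centring, Cy5 alone, no filter, the mean over probes, marked spots kept, slide as a fixed or random block, only the compared groups, fewer controls, and each array omitted singly. The heart muscle covariate, and list counts without control replicates 7 and 29 or with that covariate, were added after seeing the data.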

Additional observations from a re-analysis of the deposited data

Results flagged for a closer look

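In 56 sets of 5 arrays (8 probes in 7 groups), 10 values stood apart from the rest of their group by Dixon's criterion, a gap to the nearest array above 0.71 of the group's range; chance alone sets apart about 1 in 20 sets. For Fxyd4, NRCWE-044 at 18 µg replicate 23 was at 3.195 and the next array at 1.23. For Agr2, NRCWE-044 at 18 µg replicate 23 was at 4.851 (next 0.6827), control replicate 2 at 2.756 (next 0.723) and NRCWE-045 at 18 µg replicate 13 at 1.751 (next 0.6058). For Muc5ac, NRCWE-044 at 54 µg replicate 4 was at 3.064 (next 0.6369) and NRCWE-044 at 18 µg replicate 23 at 2.032 (next 0.5511). For Spdef, NRCWE-044 at 54 µg replicate 4 was at 3.102 (next 2.042). For the brighter Pigr probe, NRCWE-044 at 54 µg replicate 24 was low at 1.064, with the next array at 2.131. For the dimmer Pigr probe, control replicate 29 was at 3.781 (next 2.055) and NRCWE-043 at 18 µg replicate 5 at 3.183 (next 3.74). Replicates 23 and 4 account for 5 of the 10 values. Replicates 23, 2, 13 and 29 also had mean log2 ratios of the heart muscle markers of 2.48, 2.52, 2.37 and 2.69. Replicate 4 had a marker mean of 1.96, and replicate 24 a low one, given above. Replicates 23 and 24 were also the brightest arrays, with median Cy5 intensities of 334 and 224.5, beside 84.5 to 131 on the others. The part of heart tissue and of array brightness in these values was not tested.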

How the results depend on the processing

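In the main fit the members called higher than control (2 of 7 for NRCWE-043 and NRCWE-044 at 54 µg, else 0) were Slc26a4 and Fxyd4. Both are taken as chosen on their change, so nothing is read from these counts or their moves. In that fit 0 of the other 5 genes were called. With median centring each count of 2 became 1. With slide as a random block NRCWE-045 at 54 µg gave 2. The heart muscle covariate, added after seeing the data, gave 2 for NRCWE-043 at 18 µg and NRCWE-045 at 54 µg. Leaving out 1 array at a time gave 1 to 3, 2 to 3 and 0 to 2 for NRCWE-043, NRCWE-044 and NRCWE-045 at 54 µg and 0 at 18 µg. No paired analysis was possible, as groups share no replicate number. The shared slides were used as a block.

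Values of members with no call changed sign as follows, and the cause was not tested. Spdef for NRCWE-044 at 18 µg was -0.017 without background subtraction, -0.014 with median centring, -0.0044 with slide as a random block and -0.087 without control replicates 7 and 29. Spdef for NRCWE-045 at 18 µg was -0.015 with median centring and -0.017 without those controls, and for NRCWE-043 at 54 µg -0.060 without them. Muc5ac for NRCWE-045 at 54 µg was 0.0098 with the deposited values, 0.049 with median centring, 0.041 with slide as a fixed and 0.017 as a random block, and 0.17 with the heart muscle covariate. Muc5ac for NRCWE-045 at 18 µg was 0.067 with Cy5 alone and 0.038 with the covariate, for NRCWE-044 at 18 µg -0.000132 with slide as a fixed block and -0.085 without controls 7 and 29, and for NRCWE-043 at 18 µg -0.019 without them. Agr2 for NRCWE-043 at 18 µg was 0.37 with Cy5 alone and 0.19 with the covariate, for NRCWE-045 at 54 µg 0.039 with the covariate, and for NRCWE-044 at 18 µg -0.028 without controls 7 and 29. On the brighter probe, Pigr was 0.55 and 0.52 for NRCWE-043 at 18 and 54 µg with the mean over probes. For NRCWE-044 at 18 µg it was -0.27 with Cy5 alone and -0.021 without controls 7 and 29, and for NRCWE-045 -0.035 and -0.13 at 18 and 54 µg without them. Against NRCWE-043 at 18 µg, NRCWE-044 gave -0.16 with the mean over probes, where the called value was 0.78. Pigr for NRCWE-045 against NRCWE-044 at 18 µg was 0.015 with the deposited values, 0.052 with median centring, 0.38 with Cy5 alone and 0.16 with the mean over probes. The dimmer probe for NRCWE-044 against NRCWE-043 at 54 µg was -0.070 without background subtraction, -0.065 with the deposited values, -0.17 with median centring, -0.23 with Cy5 alone and -0.078 with the covariate. Fxyd4 for NRCWE-044 at 18 µg was 0.0059 with Cy5 alone and 0.020 without controls 7 and 29. For NRCWE-045 against NRCWE-043 at 54 µg Slc26a4 was -0.15 with median centring and -0.16 with Cy5 alone, and Fxyd4 -0.073 with Cy5 alone. At 18 µg Fxyd4 was 0.029 without background subtraction.

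Leaving out 1 array at a time gave sign changes within these ranges. Muc5ac ran from -0.037 to 0.37 for NRCWE-043 at 18 µg, -0.31 to 0.30 and -0.11 to 0.67 for NRCWE-044 at 18 and 54 µg, and -0.18 to 0.22 and -0.15 to 0.26 for NRCWE-045. Agr2 ran from -0.32 to 0.25 for NRCWE-043 at 18 µg, -0.57 to 0.76 for NRCWE-044 at 18 µg, and -0.45 to 0.24 and -0.54 to 0.033 for NRCWE-045 at 18 and 54 µg. Spdef ran from -0.067 to 0.085 for NRCWE-043 at 54 µg, -0.16 to 0.14 for NRCWE-044 and -0.024 to 0.12 for NRCWE-045 at 18 µg. Muc5b for NRCWE-044 at 18 µg ran from -0.090 to 0.93, and Pigr for NRCWE-045 at 54 µg from -0.048 to 0.28. Between materials, Pigr ran from -0.13 to 0.16 for NRCWE-045 against NRCWE-044 at 18 µg, and the dimmer probe from -0.045 to 0.091 for NRCWE-044 against NRCWE-043 at 54 µg. For NRCWE-044 at 18 µg Slc26a4 ran from -0.20 to 0.88 and Fxyd4 from -0.67 to 0.18. For NRCWE-045 against NRCWE-043 Slc26a4 ran from -0.97 to 0.14 at 18 µg and -0.25 to 0.40 at 54 µg, and Fxyd4 from -0.50 to 0.26 and -0.27 to 0.50. Another 36 member results, between doses or materials, have no value here, a choice made after their values were seen: 23 of them changed sign under some alternative, and 0 were called in any setting.

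Totals over all features moved too. Against control, calls for NRCWE-043 at 18 µg (1068) became 0 with only the compared groups, 54 with median centring, 443 with Cy5 alone, 1608 and 1810 with slide as a fixed and random block, and 1924 without controls 7 and 29. Those for NRCWE-044 at 54 µg (1518) became 43 with median centring, 2291 and 2305 with slide as a block, and 880 without controls 7 and 29. Those for NRCWE-045 at 54 µg (83) became 0 with median centring, 32 with only the compared groups, 173 with Cy5 alone, 158 and 273 with slide as a block and 274 with the covariate. The 2607 for NRCWE-043 at 54 µg became 524 with median centring. NRCWE-044 at 18 µg went from 0 to 29 with Cy5 alone, and NRCWE-045 at 18 µg from 0 to 1 without controls 7 and 29. The dose step of NRCWE-043 (295) ran from 6 with median centring and 28 with only the compared groups to 773 with Cy5 alone, that of NRCWE-044 (1664) from 83 and 717 to 2764, and that of NRCWE-045 (0) reached 3. Between materials, NRCWE-044 against NRCWE-043 gave 518 with median centring and 1218 with only the compared groups at 18 µg (2796) and 851 with median centring at 54 µg (1941). NRCWE-045 against NRCWE-043 gave 373 to 3494 at 18 µg (2176) and 529 with median centring at 54 µg (1377). NRCWE-045 against NRCWE-044 gave 0 to 974 at 18 µg (115) and 0 to 33 at 54 µg (0). The share of calls that were higher went with median centring from 32.2 to 13.0% for NRCWE-043 at 18 µg, from 52.2 to 67.0% at 54 µg and from 65.9 to 95.3% for NRCWE-044 at 54 µg (53.6% with the deposited values). For NRCWE-044 against NRCWE-043 at 18 µg it went from 48.9 to 77.6% with median centring and 34.1% with Cy5 alone, and for NRCWE-045 against NRCWE-043 from 70.5 to 57.9% with Cy5 alone. For the dose steps it went from 79.3 to 100% for NRCWE-043 (66.7% with the deposited values, 30.7% with Cy5 alone) and from 75.4 to 98.8% for NRCWE-044 with median centring. Median centring put the median of all features at 0.12 for NRCWE-043 at 54 µg, at 0.14 and 0.12 for the dose steps of NRCWE-043 and NRCWE-045, and at -0.18 for NRCWE-044 against NRCWE-043 at 54 µg. Muc5ac and Agr2 were well above background on 33 of 35 arrays each, other members on 35.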
